A study of Rattus norvegicus with 6 samples.

Results

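A set of 32 genes, the hypoxia targets and the glycolysis genes that respond with them, was followed in the renal cortex of rats given phenylbutazone. The set was fixed by gene symbol, and its probes were the non-control probes whose RefSeq accession belongs to such a symbol. Probes were found for 31 of the 32 members, the exception being Egln1, among 45433 named genes and unnamed accessions on the array, and 30 were bright enough to test, because both probes of Epo were dim. All 30 were well above background on all 6 arrays, so no tested member passed the filter through 1 group alone.

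The study took total RNA from the outer layer of the kidney, the renal cortex, of 6 male Sprague-Dawley (Crl:CD(SD)) rats bought at 5 weeks of age. The vehicle group of 3 rats received corn oil for 4 weeks, and the phenylbutazone group of 3 rats received 200 mg/kg/day of phenylbutazone for the same 4 weeks. Phenylbutazone is an anti-inflammatory painkiller that blocks cyclooxygenase, the enzyme step that makes prostaglandins, and the labels name no genetic change in either group. RNA of each rat went to its own one-colour Agilent array, and the series design calls the 3 samples of a group biological replicates. The question put to these genes was whether the loss of vasodilator prostaglandins leaves a hypoxia pattern in the cortex.

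Hypoxia-inducible factors are pairs of an alpha subunit (Hif1a, Epas1) and Arnt. In normal oxygen the prolyl hydroxylases of the Egln family mark the alpha subunit for destruction by the Vhl complex, and in low oxygen the subunit escapes and drives genes through short DNA sites. Targets include the glucose transporter and glycolytic enzymes, mitophagy genes, carbonic anhydrases, the vascular growth factor Vegfa and, in kidney interstitial cells, erythropoietin. Prostaglandins widen renal vessels, and the kidney's inner zones work at low oxygen even in health.

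Between 65.2% and 68.4% of probes were well above background on an array, and the 75th percentile of the intensity lay between 891 and 1003. Levels are given as log2 of the intensity minus that percentile, so a level of 0 equals the 75th percentile of its array. Vehicle arrays 1 and 2 lay on slide 1, and vehicle array 3 shared slide 2 with the 3 phenylbutazone arrays. The slides were scanned on different days, so scan day and slide cannot be told apart. On the first principal component of all genes tested, which held 29.4% of the variance, slide 1 lay at -41.2 and -36.3, vehicle array 3 at 52.3 and the phenylbutazone arrays between 1.10 and 18.9. Vehicle array 3 therefore stands apart from its own group on that component. On the second component, which held 25.7%, the vehicle arrays lay at 20.0, 23.5 and 40.5 and the phenylbutazone arrays between -39.8 and -12.1. There vehicle array 3 lay on the side of its own group. The comparison within slide 2 rests on vehicle array 3 as the single control. All 13 proximal tubule markers of the list were well above background on all 6 arrays. So were all 11 tested medulla and papilla genes and all 8 thick ascending limb genes, so detection alone does not single out cortex.

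No member differed between the groups past the threshold, an adjusted p of 0.05. Under limma 0 of 30 members were called, beside 0 (0%) of the 29938 genes tested. The lowest adjusted p of a member in limma was 0.334, for Aldoc. At an unadjusted p under 0.05 in limma there were 2 members, Aldoc, higher (background 5.97%), and Mxi1, lower (background 6.24%), beside 3657 genes in either direction (12.2%). The 3 values of each group lay wholly apart in 5 members (16.7%), against 21.5% of all genes tested, with 3 members higher under phenylbutazone (background 12.1%) and 2 lower (background 9.39%). The means were higher under phenylbutazone in 17 members (56.7%, background 52.8%) and lower in 13 (background 47.2%), a split that became 21 to 9 under median scaling and 14 to 16 under quantile normalization. The median difference, phenylbutazone minus vehicle, was 0.022 log2 units over the members and 0.015 over all genes tested. In whole cortex, fewer cells of a type and less RNA per cell cannot be told apart.

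The member differences were small, from -0.42 to 0.45 log2 units, and the largest was 1.36-fold. In 18 of 30 members the difference was smaller than its own standard error. The median size of the difference was 0.10 for members and 0.16 for all genes tested. The 95% interval of the difference, from limma with 3 arrays per group, lay inside a 2-fold change in either direction for 29 of 30 members (96.7%, against 84.8% of all genes tested). Ddit4 was the exception. A change of 1.5-fold lay outside the interval for 23 members (76.7%, against 54.2% of all genes). The vehicle group spans both slides, and the small number of arrays limits these intervals.

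**Figure D1:**
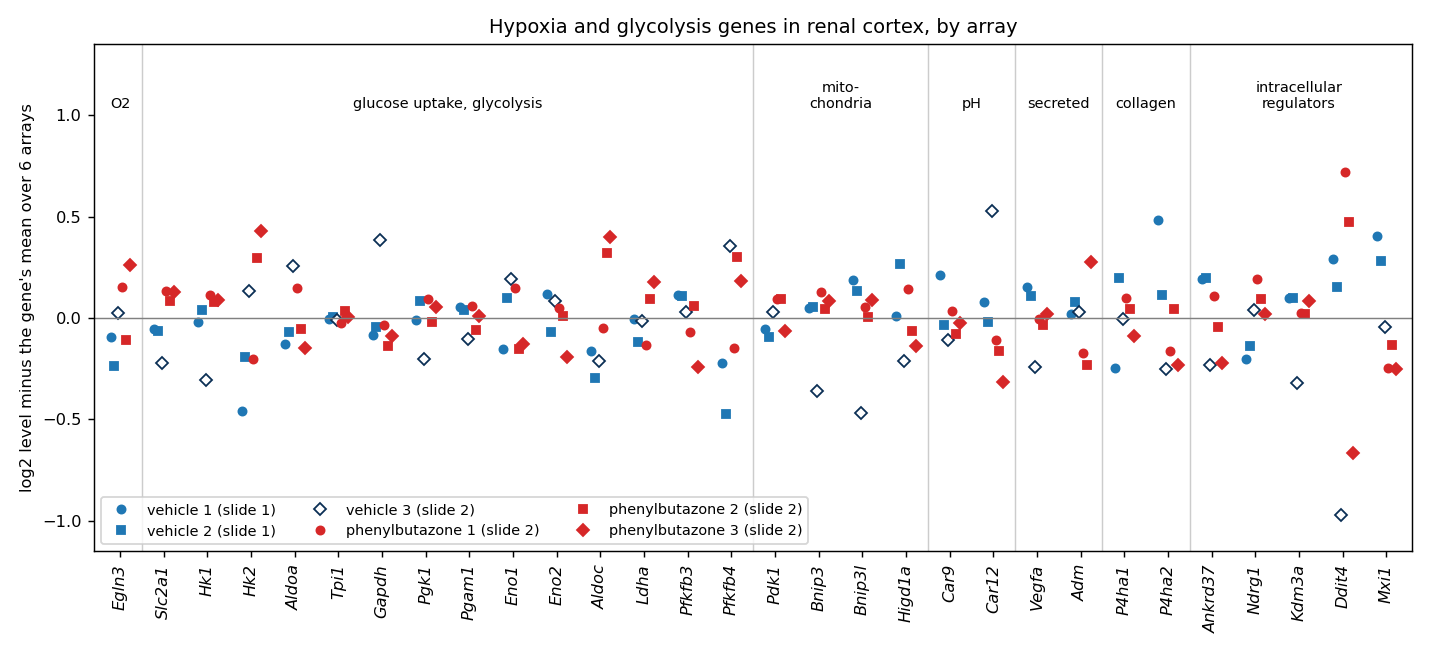
Level of each of the 30 tested members on each array, as the log2 level minus that gene's mean over the 6 arrays, with genes ordered by role along the horizontal axis and 1 point per array: blue for vehicle on slide 1, an open diamond for vehicle array 3 on slide 2 and red for phenylbutazone. Points of the 2 groups mix for most genes, they lie apart for Slc2a1, Hk1, Aldoc, Car12 and Mxi1, and Ddit4 spreads most widely.

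The short site through which hypoxia-inducible factors act has the core A or G followed by CGTG. RefSeq promoter windows of the rat assembly GRCr8, from 250 bases before to 50 after the gene start, were found for 29 of the 32 members as 35 windows (none for Pgk1, Bnip3l and Ndrg1). The letters ACGTG, read on both strands, occurred in 21 member windows (60.0%) and in 6444 of 33469 windows of all genes (19.3%). The letters GCGTG occurred in 51.4% of member windows and 29.7% of all windows. CG-rich windows hold these letters more often: among 8374 windows with between 12.5 and 29.5 CpG pairs, the middle range of the members, the shares were 27.7% for ACGTG and 54.0% for GCGTG. The palindrome CACGTG contains ACGTG on both strands and is also the E-box read by other factors. It occurred in 4 member windows (11.4%), against 6.42% of all windows and 10.3% of those in that CpG range. The member shares are over all 35 member windows, with no limit on CpG, so they are not matched to the shares in that range. The 4 member windows with CACGTG, of Ankrd37, Bnip3, Ldha and Pfkfb3, all lay in that range. A match is a description of letters, not a site shown to be bound.

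These stretches are shown because they hold an ACGTG of members whose levels are described next: the glucose transporter, lactate dehydrogenase and mitophagy genes of the textbook response, the ankyrin-repeat gene Ankrd37, and the members Aldoc and Mxi1 with the largest differences. Each has 60 bases 5′ to 3′ on the strand of its gene and ends before the gene start. Capitals mark ACGTG or GCGTG on either strand, the reverse reading being CACGT or CACGC.
Ldha: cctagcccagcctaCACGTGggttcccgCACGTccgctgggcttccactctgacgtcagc
Slc2a1: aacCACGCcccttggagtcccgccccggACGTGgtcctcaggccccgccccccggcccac
Bnip3: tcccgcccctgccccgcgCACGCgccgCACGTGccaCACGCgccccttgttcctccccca
Ankrd37: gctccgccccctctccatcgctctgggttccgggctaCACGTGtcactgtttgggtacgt
Aldoc: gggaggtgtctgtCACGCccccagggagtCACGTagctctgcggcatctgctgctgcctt
Mxi1: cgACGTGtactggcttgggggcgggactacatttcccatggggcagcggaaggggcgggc

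In GRCr8 the Ldha stretch is chr1:106507991-106508050 on the plus strand, that of Slc2a1 chr5:138002443-138002502 on the plus strand and that of Bnip3 chr1:203155029-203155088 on the minus strand. Ankrd37 is at chr16:53001447-53001506, Aldoc at chr10:63715484-63715543 and Mxi1 at chr1:262348392-262348451, all on the plus strand. The ACGTG nearest the start began 73 bases before it in Ldha, 51 in Slc2a1, 31 in Aldoc and 248 in Mxi1. The windows of Vegfa, Egln3 and Hk2 held neither set of letters, which says only that they are not in these windows. Of the 20 tested members with an ACGTG, 9 had a higher mean under phenylbutazone and 11 a lower one, with a median difference of -0.039. Of the 7 tested members whose windows lacked it, 5 were higher and 2 lower, with a median of 0.085.

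Oxygen sensing was represented by Egln3, a prolyl hydroxylase whose transcript is itself a hypoxia target. In the order of replicates 1, 2 and 3, here and below, its levels were -1.68, -1.82 and -1.56 in vehicle and -1.43, -1.69 and -1.32 under phenylbutazone. The groups overlapped through phenylbutazone array 2, and the difference was 0.21 ± 0.14 (SE, n = 3 per group, limma adjusted p = 0.575). Within slide 2 the difference was 0.080.

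Glucose uptake and glycolysis gave 14 tested members. Of these, 9 (64.3%, background 52.8%) had higher and 5 lower means under phenylbutazone, with a median difference of 0.047. None was called. The groups lay apart in 3 of them (21.4%, background 21.5%), Slc2a1, Hk1 and Aldoc, all higher (background 12.1%).

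Slc2a1 encodes the glucose transporter GLUT1. Its levels were 1.23, 1.22 and 1.06 on the vehicle arrays and 1.42, 1.37 and 1.41 after phenylbutazone. The 3 phenylbutazone values sat close together above all vehicle values, and vehicle array 3 was lowest. The difference was 0.23 ± 0.096 (limma adjusted p = 0.417), a 1.17-fold higher mean, with a 95% interval from -0.005 to 0.46. Within slide 2 it was 0.34 (adjusted p = 0.148).

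Hexokinases trap glucose in the cell by phosphorylation. Hk1 stood at 1.98, 2.04 and 1.69 on the vehicle arrays and at 2.11, 2.08 and 2.09 under phenylbutazone. The groups lay apart, but by a margin of hundredths from vehicle array 2 and by far more from vehicle array 3. Its difference was 0.19 ± 0.12 (limma adjusted p = 0.560), and 0.084 without vehicle array 3. A second Hk1 probe gave -0.042, and -0.38 within slide 2. Hk2, the inducible hexokinase of the response, was at -4.98, -4.72 and -4.39 on the vehicle arrays and at -4.73, -4.23 and -4.09 under phenylbutazone. Phenylbutazone array 1 lay inside the vehicle range, and the difference of 0.35 ± 0.22 (limma adjusted p = 0.566, interval -0.20 to 0.89) was 0.039 within slide 2. These levels are near the floor: the lowest level well above background was between -5.90 and -5.32 on each array. The other Hk2 probe was well above background on 0 arrays. With another background correction, normexp, the Hk2 difference was 0.15.

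Aldoc, the brain-type aldolase, had the largest difference of the set. Its levels were -2.12, -2.26 and -2.17 on the vehicle arrays and -2.01, -1.64 and -1.56 under phenylbutazone. Phenylbutazone array 1 was just above the vehicle arrays and the other phenylbutazone arrays were clearly higher. The difference was 0.45 ± 0.14 (limma unadjusted p = 0.020, adjusted p = 0.334, interval 0.10 to 0.79). A second, dimmer Aldoc probe went the other way, with -3.43, -3.32 and -4.11 on the vehicle arrays and -4.37, -4.31 and -4.02 under phenylbutazone, a difference of -0.61 ± 0.23. With the mean of both probes in place of the brighter one, the Aldoc difference was -0.083, so its direction depends on the probe.

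Ldha makes the lactate dehydrogenase subunit that turns pyruvate into lactate. It stood at 5.94, 5.83 and 5.93 on the vehicle arrays and at 5.81, 6.04 and 6.13 under phenylbutazone. The groups overlapped, and the difference was 0.093 ± 0.12 (limma adjusted p = 0.775, interval -0.19 to 0.38). A second Ldha probe gave -0.068.

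Over all 6 arrays the brightest probes of most enzymes of the middle and lower pathway lay close to 0. Aldoa differed by -0.038 ± 0.15, Tpi1 by 0.0081 ± 0.085, Pgk1 by 0.085 ± 0.11 and Pgam1 by 0.0042 ± 0.097. Both enolases were slightly lower, Eno1 by -0.089 ± 0.14 and Eno2, the neuronal form, by -0.087 ± 0.11. Further probes were lower for Tpi1 (-0.077, with its groups apart, and -0.060), Pgk1 (-0.079), Pgam1 (-0.28) and Eno1 (-0.17 and -0.26). The further Eno2 probe was higher (0.15). Within slide 2 Aldoa was at -0.27, Pgk1 at 0.25 and Eno1 at -0.23, with vehicle array 3 outside all phenylbutazone arrays in each. Signs of Aldoa, Tpi1, Pgk1 and Pgam1 turned under at least 1 other scaling. Gapdh, the glycolytic dehydrogenase, differed by -0.17 ± 0.15. Its brightest probe read 7.76 on vehicle array 3 and between 7.24 and 7.34 on the other 5 arrays, and the 5 Gapdh probes gave differences from -0.17 to -0.026. Without vehicle array 3 the Gapdh difference was -0.023 and that of Pgk1 0.0046. Gapdh, Pgk1, Ldha, Eno1, Aldoa and Pgam1 can have near-identical processed copies in rodent genomes, so their probes may read more than 1 locus.

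Pfkfb3 and Pfkfb4 make the fructose bisphosphate that sets the pace of glycolysis. Pfkfb3 differed by -0.17 ± 0.11 and Pfkfb4 by 0.23 ± 0.24, with limma adjusted p of 0.579 and 0.729. For Pfkfb4 the sign turned within slide 2, to -0.24, and leaving out 1 array moved it between 0.046 and 0.46.

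Mitochondrial members were Pdk1, the kinase that keeps pyruvate out of mitochondria, the mitophagy receptors Bnip3 and Bnip3l, and the respiratory supercomplex factor Higd1a. Pdk1 was at -2.11, -2.15 and -2.03 on the vehicle arrays and -1.96, -1.96 and -2.12 under phenylbutazone. Phenylbutazone array 3 lay among the vehicle values, and the difference was 0.081 ± 0.099 (limma adjusted p = 0.770). Bnip3 was at 5.01, 5.01 and 4.60 on the vehicle arrays and 5.09, 5.01 and 5.04 under phenylbutazone. On this probe vehicle array 3 alone was low, and the other 5 arrays were within 0.1 of each other. The Bnip3 difference was 0.17 ± 0.14 (limma adjusted p = 0.647, interval -0.17 to 0.51), 0.44 within slide 2 and 0.035 without vehicle array 3. A second Bnip3 probe did not show the low vehicle array 3: it read 3.65, 3.70 and 3.71 in vehicle and 3.87, 3.80 and 3.83 under phenylbutazone. Its groups lay apart, with a difference of 0.15 ± 0.088, and of 0.13 within slide 2.

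Bnip3l, given by array after its values were seen, repeated that shape, with 4.89, 4.84 and 4.24 on the vehicle arrays and 4.76, 4.71 and 4.79 under phenylbutazone. Its difference of 0.10 ± 0.19 was 0.52 within slide 2 and -0.11 without vehicle array 3. Higd1a differed by -0.040 ± 0.16, a sign that turned under median scaling.

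The carbonic anhydrases Car9 and Car12 take part in pH control, and Car9 is a textbook hypoxia target with little expression in normal kidney. Car9 stood at -2.76, -3.01 and -3.08 on the vehicle arrays and at -2.94, -3.05 and -3.00 under phenylbutazone. The phenylbutazone values all lay within the vehicle range, and the difference was -0.047 ± 0.12 (limma adjusted p = 0.893, interval -0.33 to 0.24), with the sign turned under median scaling and within slide 2. Car12 read 0.66, 0.56 and 1.11 on the vehicle arrays and 0.47, 0.42 and 0.27 under phenylbutazone. Every phenylbutazone value lay below every vehicle value, and vehicle array 3 was the highest. The difference was -0.39 ± 0.17 (limma adjusted p = 0.423, interval -0.80 to 0.015), or -0.72 within slide 2 (adjusted p = 0.132) and -0.22 without vehicle array 3. The second Car12 probe gave -0.40 ± 0.15 with its groups apart as well.

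Secreted members were Vegfa, the endothelial growth factor, Adm, the vasodilator peptide adrenomedullin, and Epo. Vegfa stood at 4.33, 4.28 and 3.93 on the vehicle arrays and at 4.17, 4.14 and 4.19 under phenylbutazone. The 3 phenylbutazone values lay between vehicle array 3 and the other vehicle arrays. The difference was -0.014 ± 0.13 (limma adjusted p = 0.975, interval -0.33 to 0.31), and its 6 probes ranged from -0.16 to 0.029. Vehicle array 3 was below its group on 3 of the 6 and above it on 3. Median scaling turned the sign, to 0.033. The difference was 0.24 against the single vehicle array of slide 2 and -0.14 against the vehicle arrays of slide 1. Adm differed by -0.084 ± 0.15. Neither of the 2 Epo probes was well above background on any vehicle array, and 1 of them was so on 1 array in all, phenylbutazone array 3. That probe read -7.53, -7.32 and -6.19 in vehicle and -7.14, -6.43 and -5.30 under phenylbutazone, and the other -7.11, -7.66 and -8.00 in vehicle and -7.57, -7.72 and -6.01 under phenylbutazone, values that below background have no order. Epo was not tested and has no fold change here.

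Collagen prolyl hydroxylases stabilise collagen, and 2 were members. P4ha1 differed by 0.036 ± 0.14 and P4ha2 by -0.23 ± 0.20. The P4ha2 difference was -0.42 without vehicle array 3, -0.047 without vehicle array 1 and 0.14 within slide 2. A second P4ha2 probe lay apart and lower, at -0.32 ± 0.12.

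Intracellular regulators included Mxi1, a Max partner that opposes Myc. Mxi1 read 2.90, 2.78 and 2.45 on the vehicle arrays and 2.25, 2.36 and 2.24 under phenylbutazone. All phenylbutazone values lay below the lowest vehicle value, that of vehicle array 3. The difference was -0.42 ± 0.14 (limma unadjusted p = 0.022, adjusted p = 0.347, interval -0.76 to -0.084), and -0.17 within slide 2. Without vehicle array 3 Mxi1 was the only member called, at -0.55 (limma adjusted p = 0.0495). There the treatment and the slide coincide and cannot be told apart, and 814 genes (2.72%) were called. Of its 4 probes, 3 lay apart and lower, at -0.42, -0.33 and -0.26, and the dimmest gave 0.17.

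Ddit4, an inhibitor of mTORC1 signalling that responds to hypoxia and to glucocorticoids, varied most. Its values, given by array after they were seen, were 2.54, 2.40 and 1.27 on the vehicle arrays and 2.97, 2.72 and 1.58 under phenylbutazone. A low array occurred in each group. The SD was 0.69 in vehicle and 0.74 under phenylbutazone, a spread at the 95.9 percentile of all genes tested, and the difference was 0.35 ± 0.48 (limma adjusted p = 0.790, interval -0.81 to 1.51). All 3 Ddit4 probes gave differences between 0.28 and 0.35, but without vehicle array 3 the difference was -0.045. Ankrd37 differed by -0.11 ± 0.16 (-0.25 without vehicle array 3), the stress-responsive gene Ndrg1 by 0.20 ± 0.11 and the histone demethylase Kdm3a by 0.085 ± 0.14.

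**Figure D2:**
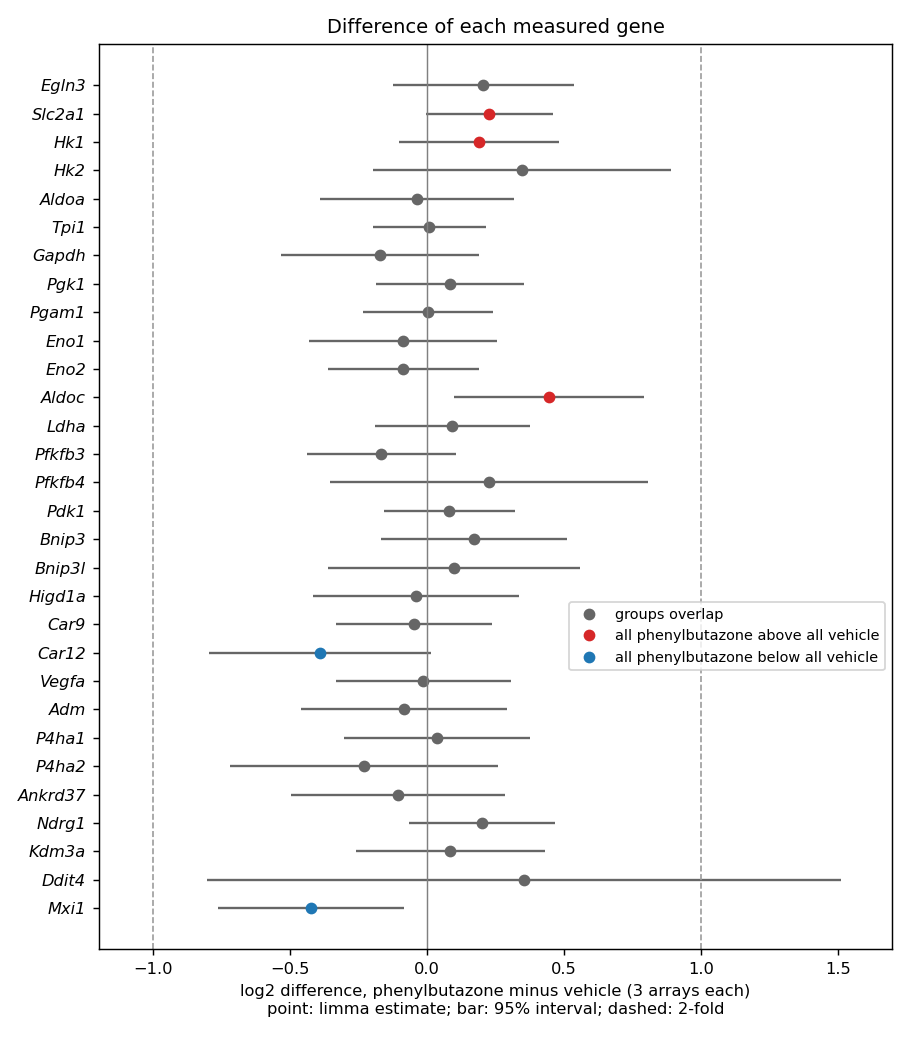
Log2 difference, phenylbutazone minus vehicle, of each tested member with its 95% interval from limma (3 arrays per group), red where all phenylbutazone values lay above all vehicle values, blue where below and grey where the groups overlapped. The intervals lie inside the dashed 2-fold lines except for Ddit4, which reached 1.51.

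Where several probes read 1 gene, they often differed in sign. Of 66 member probes 60 were bright enough, and 18 members had several. Among the 30 further probes, 10 had the opposite sign to the brightest probe of their gene, in Aldoc, Eno2, Hk1, Ldha, Mxi1, Pgam1, Pgk1, Tpi1 and Vegfa. Over all 60 probes 25 were higher and 35 lower under phenylbutazone, where 51.7% of all kept probes were higher and 48.3% lower, and the groups lay apart in 12 (20.0%, against 20.3% of all kept probes).

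**Figure D3:**
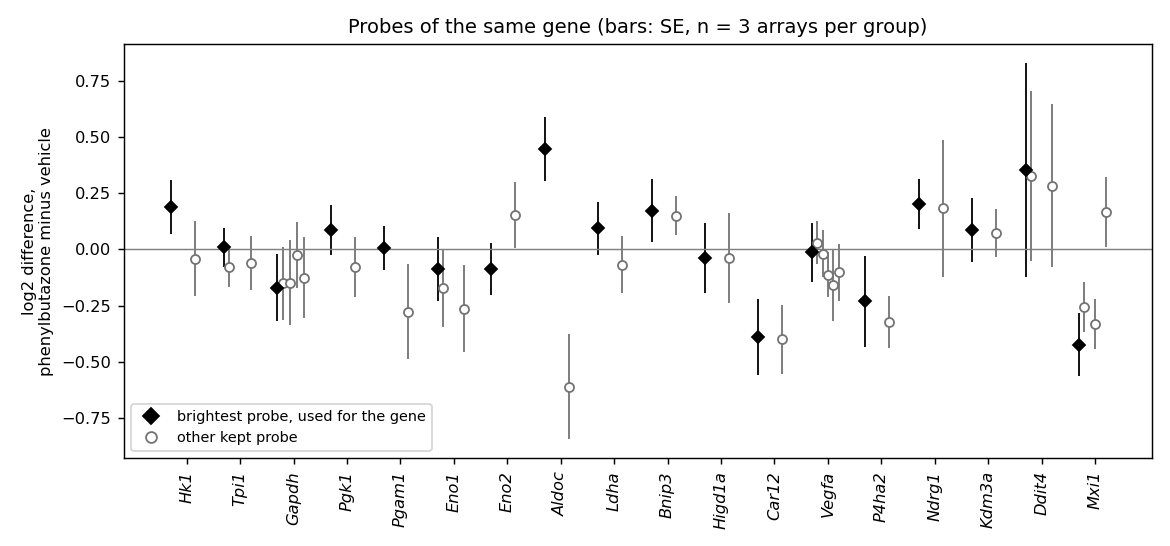
Log2 difference, phenylbutazone minus vehicle, of every kept probe of the members with several probes, with bars of 1 SE from limma (3 arrays per group), the brightest probe of a gene as a filled diamond and the others as open circles. The 2 Car12 probes lie together at -0.39 and -0.40, whereas the Aldoc probes lie on opposite sides of 0, at 0.45 and -0.61.

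Within slide 2, the 3 phenylbutazone arrays were set against vehicle array 3 alone, which limma assumes to vary like the phenylbutazone arrays. No member was called (lowest limma adjusted p 0.132), and 0 (0%) of all genes tested were. At an unadjusted p under 0.05 there were 7 members, beside 27.1% of all genes. Members were higher in 21 cases (background 55.4%) and lower in 9 (background 44.6%), with a median of 0.072 (0.055 over all genes). Vehicle array 3 lay outside the 3 phenylbutazone arrays in 21 members (70.0%, background 72.6%), below them in 14 (background 41.4%) and above them in 7 (background 31.1%). The members highest over it were Ddit4 by 1.15, Bnip3l by 0.52, Bnip3 by 0.44, Aldoc by 0.43, Hk1 by 0.40 and Kdm3a by 0.37. In all of these but Aldoc (0.018), vehicle array 3 was also low against its own group: minus the mean of vehicle arrays 1 and 2 it stood at -1.19 in Ddit4, -0.63 in Bnip3l, -0.41 in Bnip3, -0.32 in Hk1 and -0.42 in Kdm3a. These are the values of each gene's brightest probe, and second probes did not all repeat them. Vehicle array 3 was above its own group on the second probe of Hk1 (0.50), Kdm3a (0.20) and Bnip3 (0.035), and the slide 2 differences there were -0.38, -0.060 and 0.13. The second Aldoc probe gave -0.12 within slide 2. Both further Ddit4 probes did repeat the direction, at 0.65 each within slide 2. Car12 and Gapdh were the reverse, at -0.72 and -0.47 within slide 2, with vehicle array 3 above the other vehicle arrays by 0.50 and 0.45.

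Vehicle array 3 was the lowest of all 6 arrays in 13 of 30 members (43.3%), against 34.3% of all genes tested. That count is for the brightest probes. Vehicle array 3 was lowest on 2 of the 30 further member probes (6.67%), on 15 of all 60 (25.0%) and on 30.5% of all kept probes. The further probes include those of members whose brightest probe was not lowest there, such as Gapdh, Eno1 and Mxi1. Slc2a1, Bnip3l, Car9 and Ankrd37, which are among the 13, had no further kept probe. On 13 of the 30 further probes vehicle array 3 stood on the other side of its group than on the brightest probe. Outside glycolysis it was the lowest in 9 of 16 members (56.3%), and it stood below the other vehicle arrays by a median of -0.36, against 0.032 in glycolysis and -0.074 over all genes. Left out, the remaining groups lay apart in 13 members (43.3%, background 43.7%), 5 higher and 8 lower, with a median of -0.019. The members' score, the mean over members of the deviation from each gene's own mean, was 0.019, 0.0066 and -0.074 in vehicle and 0.038, 0.027 and -0.017 under phenylbutazone. Those groups overlapped. For the 14 glycolysis members it was -0.072, -0.068 and 0.026 against 0.0058, 0.061 and 0.048, where phenylbutazone lay above slide 1 but around vehicle array 3. For the 16 others it was 0.10, 0.072 and -0.16 against 0.065, -0.0027 and -0.073, with vehicle array 3 at the bottom.

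The machinery that controls these genes was read from a list of 15 genes, 13 of them tested, of which 0 were called. Hif1a differed by 0.039 ± 0.20 and Epas1, the second alpha subunit, by 0.053 ± 0.12. The groups lay apart in 2 genes (15.4%, background 21.5% for either direction), both higher (background 12.1%). They were Arnt2, a relative of Arnt, at 0.79 ± 0.23 and Vhl at 0.34 ± 0.15, with limma adjusted p of 0.307 and 0.439. Vehicle array 3 was low in both: Arnt2 was 0.53 without it and 1.31 within slide 2, and Vhl 0.19 and 0.64. Arnt itself differed by -0.36 ± 0.21 (limma adjusted p = 0.530), or -0.61 within slide 2. The median difference was 0.031, and 0.013 within slide 2. The score of the list was -0.040, -0.030 and -0.019 in vehicle and 0.036, 0.012 and 0.041 under phenylbutazone. Those groups lay apart, and the score was not tested.

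Further glycolytic genes outside the set numbered 22, of which 21 were tested and 0 called. Means were higher in 9 and lower in 12, with a median of -0.056. The groups lay apart in 5 (23.8%, background 21.5% for either direction), all lower (background 9.39%). At an unadjusted p under 0.05 in limma, 3 were lower (background 6.24%) and 0 higher (background 5.97%). Those of smallest p were the hexokinase Hk3 at -0.99 ± 0.24, Pdk3 at -0.35 ± 0.10, the liver phosphofructokinase Pfkl at -0.39 ± 0.16 and the pyruvate kinase Pkm at -0.26 ± 0.14, with limma adjusted p from 0.276 to 0.483. The score of the 21 tested genes was 0.087, 0.13 and -0.058 in vehicle and -0.025, -0.099 and -0.036 under phenylbutazone. Vehicle array 3 thus lay among the phenylbutazone arrays. The median was -0.097 within slide 2 (0.055 over all genes) and -0.053 without vehicle array 3 (-0.0027 over all genes). Slc2a3 was too dim to test.

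Of 42 further hypoxia targets 34 were tested and 0 called, with means higher in 21, lower in 13 and a median difference of 0.077. The groups lay apart in 5 (14.7%, background 21.5%). Higher were Igfbp1, which binds insulin-like growth factors, at 1.60 ± 0.40, and the transcription factor Maff at 0.96 ± 0.24. Lower were Wsb1 at -0.46 ± 0.12, the inducible nitric oxide synthase Nos2 at -0.65 ± 0.19 and the collagen lysyl hydroxylase Plod1 at -0.36 ± 0.11. Their limma adjusted p ranged from 0.276 to 0.323. The median of the 34 genes depended on vehicle array 3: it was 0.24 within slide 2 (0.055 over all genes) and 0.022 without that array (-0.0027 over all genes). Within slide 2, 25 were higher (background 55.4%) and 9 lower (background 44.6%). All 3 phenylbutazone arrays lay above vehicle array 3 in 18 (background 41.4%) and below it in 7 (background 31.1%).

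Markers of other cells differed between arrays as well. Of 15 erythrocyte genes listed 12 had a probe and 11 were bright enough. All 11 had higher means under phenylbutazone (median 0.48), 0 were called by limma, and their summed linear level ran from 501 to 686 in vehicle and from 588 to 933 under phenylbutazone, in units of the array's 75th percentile. Their score was lowest, -0.51, on vehicle array 3, and the groups overlapped because phenylbutazone array 2 (-0.13) lay below vehicle array 2 (-0.088). Medulla genes were higher in 7 of 11 (median 0.11), with summed levels of 141 to 155 in vehicle and 124 to 178 under phenylbutazone. Thick ascending limb genes were higher in 6 of 8 (median 0.21), with vehicle array 3 lowest at a score of -0.19. Endothelial genes were lower in 7 of 9 (median -0.19), and proximal tubule genes were higher in 8 of 13 (median 0.090). Fibroblast and pericyte genes were higher in 6 of 9 (median 0.030) and macrophage and neutrophil genes in 5 of 8 (median 0.15). Their part in the member values was not tested.

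**Figure D4:**
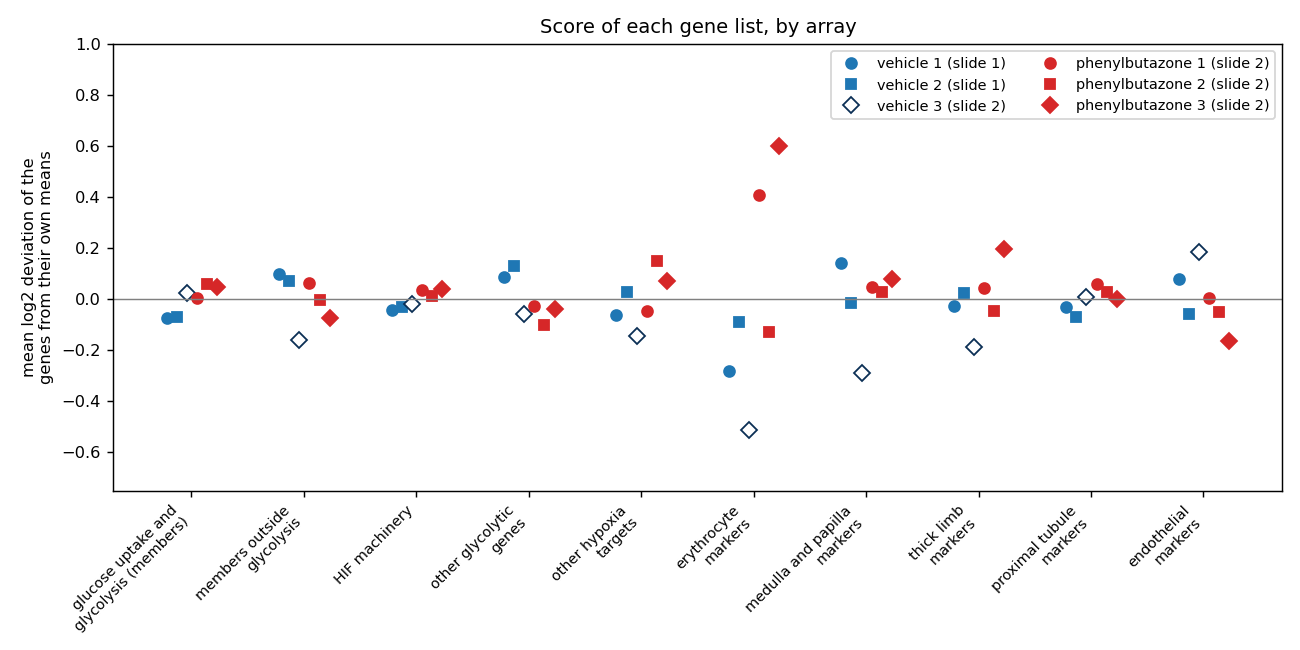
Score of each gene list on each array, the mean over its tested genes of the log2 deviation from that gene's mean over 6 arrays, with 1 point per array and the open diamond for vehicle array 3. The glycolysis members stay between -0.072 and 0.061 and the other members between -0.16 and 0.10, while the erythrocyte score spans -0.51 to 0.60 and is lowest on vehicle array 3.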

How the data were processed

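Images were read with Agilent Feature Extraction 10.7, per the submitters' processing notes. The deposited scanner files hold each spot's processed intensity, corrected for background and without scaling between arrays, per the file headers. Ratios in the deposited value table equalled that intensity over the array's 75th percentile (largest log2 gap 0.00496 where the ratio was above 0.1), with column medians of 0.105 to 0.110. Their scale, centring and direction are settled. No spot was saturated.

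Of 61537 non-control probes, 40 with outlier flags were left out, and 41006 (66.6%), well above background on at least 3 of 6 arrays, were kept. Accessions without version were matched to RefSeq genes of GRCr8, which named 28206 probes (45.8%). The brightest kept probe stood for a gene. Groups were compared with limma 3.58.1 (lmFit, eBayes; R 4.3.3) on log2 intensities minus the array's 75th percentile, two-sided, with Benjamini-Hochberg adjustment over 29938 genes. Errors after ± are SE. The fit was tested on simulated data with independent arrays and no slide effect, so that test says nothing about the slides here.

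Members, lists and tests were chosen with earlier results of these data known. Values per array are given for members whose groups lay apart, for any called, and for Epo, Vegfa, Slc2a1, Ldha, Hk2, Pdk1, Egln3, Bnip3 and Car9. From the other pathway lists, with no gene called, at most 4 genes in each direction were named, by smallest p among those whose groups lay apart, besides Hif1a, Epas1 and Arnt, which were named as the factor's subunits, and Slc2a3, named as not tested, all after their values were seen. The alternatives were other scalings, background correction, filters and probe rules, the deposited ratios, slide and replicate blocks, slide 2 alone, and leaving out each array. Normexp took the median, not the mean, intensity of a spot.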

Additional observations from a re-analysis of the deposited data

How the results depend on the processing

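Under the 17 alternatives the members called stayed at 0, apart from 1 without vehicle array 3 (leave-one-out range 0 to 1). The median member difference ran from -0.027 (quantile) to 0.072 (slide 2 alone). Genes called, 0 in the comparison as reported, were 1 under quantile normalization, 2 under normexp, 1 with slide as a random block, and 0 to 814 on leaving out 1 array, the 814 without vehicle array 3. Median scaling moved every gene's difference by the same amount, taking the median over all genes from 0.015 to 0.063. It turned the signs of Aldoa (0.0095), Higd1a (0.0070), Car9 (0.00022) and Vegfa (0.033). For the other member signs that reversed, the cause was not tested. Quantile normalization gave Tpi1 -0.059, Pgk1 -0.043 and Pgam1 -0.11. Normexp gave Aldoa 0.099, Pgam1 -0.057, Bnip3l -0.030 and Adm 0.0054. The mean of a gene's probes gave Tpi1 -0.043, Pgam1 -0.14, Eno2 0.033 and Aldoc -0.083. Slide as a fixed block and slide 2 alone both gave Pfkfb4 -0.24, Higd1a 0.19, Car9 0.083, Vegfa 0.24, P4ha2 0.14 and Ankrd37 0.18. Slide as a random block (correlation 0.57) gave Pfkfb4 -0.073, Higd1a 0.11, Car9 0.036, Vegfa 0.15, P4ha2 0.0032 and Ankrd37 0.075. With slide as a fixed block, 9 members passed an unadjusted p of 0.05 in limma (lowest adjusted p 0.0594), beside 9461 genes.

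Leaving out 1 array at a time, differences ran from -0.11 to 0.047 for Car9, -0.14 to 0.059 for Vegfa, -0.078 to 0.14 for P4ha1, -0.16 to 0.083 for Higd1a, -0.12 to 0.080 for Aldoa, -0.045 to 0.036 for Pgam1, -0.11 to 0.22 for Bnip3l, -0.055 to 0.16 for Kdm3a, -0.045 to 0.77 for Ddit4, -0.0064 to 0.023 for Tpi1 and -0.24 to 0.0092 for Adm. Without a turn in sign but by over 1.5 times, they ran from 0.13 to 0.31 for Egln3, 0.084 to 0.26 for Hk1, 0.20 to 0.54 for Hk2, -0.26 to -0.023 for Gapdh, 0.0046 to 0.15 for Pgk1, -0.19 to -0.016 for Eno1, -0.14 to -0.014 for Eno2, 0.026 to 0.18 for Ldha, -0.24 to -0.087 for Pfkfb3, 0.046 to 0.46 for Pfkfb4, 0.054 to 0.13 for Pdk1, 0.035 to 0.24 for Bnip3, -0.50 to -0.22 for Car12, -0.42 to -0.047 for P4ha2 and -0.25 to -0.022 for Ankrd37.

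Replicate numbers were taken as names only. Deviations of same-numbered arrays from their group means correlated at -0.030, 0.011 and -0.074. Vehicle deviations hold the slide difference and phenylbutazone deviations do not, so these correlations cannot decide whether the animals were paired. With the replicate block limma called 0 genes and 0 members, with a member median of 0.022. The lowest member adjusted p in limma was 0.533, for Ddit4, whose low array was replicate 3 in both groups.

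Depth on arrays is signal over background: Epo was mostly below it and no bound is given. With 3 arrays per group and 2 vehicle arrays on a slide of their own, slide and treatment are partly confounded.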
